A study of Mus musculus with 4 samples.

Results

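Macrophages of subcutaneous white adipose tissue, the fat beneath the skin, were described through 33 genes of macrophage identity, tissue residence, alternative activation, scavenging and lipid handling. The 33 genes were a list chosen by name, and each was matched by its symbol to a row of a deposited expression table of 51912 genes. All 33 were found and all 33 had enough counts to be tested, among 15643 tested genes. The tissue came from 8-week-old C57BL/6 mice that had received BML-260 or the vehicle DMSO (dimethyl sulfoxide). BML-260 is a small molecule described as inhibiting DUSP22 (JSP-1), a phosphatase. RNA was sequenced in 4 libraries, vehicle A, vehicle B, BML-260 A and BML-260 B, so that n = 2 libraries per treatment throughout. The series names 8 mice, 4 per treatment. Which mice went into which library is not given in the sources used here, and neither are dose, route and duration of treatment. The p-values below therefore describe the spread among these 4 libraries alone, which may be technical.

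Adipose tissue macrophages clear dying adipocytes, take up the lipid these release and store or export it. Resident macrophages lie along vessels and between adipocytes and carry receptors such as CD163, LYVE1, TIM4 and the folate receptor FOLR2. Lipid-associated macrophages gather around dying adipocytes, depend on the lipid receptor TREM2 and carry GPNMB, CD9, osteopontin and galectin-3. Alternatively activated macrophages respond to interleukin-4 and interleukin-13 and are known by the mannose receptor MRC1, the chitinase-like protein Chil3 (Ym1) and the resistin-like molecule Retnla. Because whole tissue was sequenced, fewer cells of a type and less RNA per cell cannot be told apart.

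Total expected counts were 19999836 to 23726781 per library. Levels are given as CPM, the usual depth-scaled unit, with TMM factors for the composition of each library, and comparisons of levels between genes as the deposited FPKM, which accounts for gene length. The libraries stood apart in 2 ways. BML-260 A held the highest lymphoid marker levels, with a summed level of the T and NK cell list of 176 CPM against 17.5 to 40.6 CPM in the other 3 libraries, and 496 CPM against 140 to 172 CPM for the B cell list. Skeletal muscle genes summed to 415 CPM in vehicle A, 11220 CPM in vehicle B, 31534 CPM in BML-260 A and 48617 CPM in BML-260 B. Results for the 33 genes are therefore given with and without BML-260 A. The defining macrophage genes were present in every library: mean levels over the 4 libraries were 21.4 FPKM for Adgre1 (F4/80), 87.0 FPKM for Cd68 and 56.3 FPKM for Csf1r.

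Promoters of 5 of the genes are shown because these genes carry the 2 patterns described next: Trem2, Gpnmb, Spp1 and Chil3 were the genes with an available promoter among those that DESeq2 called higher with BML-260, and Cd163 had the smallest p among the genes that lay lower. Sequences are from RefSeq on GRCm38.p6, run 5′ to 3′ along the gene's strand from 250 bases before to 50 bases after the annotated start, and were available for 25 of the 33 genes, in 32 promoter entries. Trem2 is at chr17:48346151-48346450 on the plus strand, Gpnmb at chr6:49036268-49036567 on the plus strand, Spp1 at chr5:104434861-104435160 on the plus strand (the upstream of its starts), Chil3 at chr3:106167515-106167814 on the minus strand and Cd163 at chr6:124304401-124304700 on the plus strand. Capitals mark matches, on either strand, to GAGGAAG (the letters of a PU.1 site), TGANTCA (AP-1), TTCNNNNGAA (STAT) or CACGTG (the E-box of the MiT/TFE factors that drive lysosome genes).
Trem2: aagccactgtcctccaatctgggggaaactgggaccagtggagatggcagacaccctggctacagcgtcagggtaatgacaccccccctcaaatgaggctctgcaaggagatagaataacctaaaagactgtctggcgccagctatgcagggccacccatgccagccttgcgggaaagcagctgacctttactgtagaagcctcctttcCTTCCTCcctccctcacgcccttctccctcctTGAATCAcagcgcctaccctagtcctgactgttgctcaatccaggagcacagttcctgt
Gpnmb: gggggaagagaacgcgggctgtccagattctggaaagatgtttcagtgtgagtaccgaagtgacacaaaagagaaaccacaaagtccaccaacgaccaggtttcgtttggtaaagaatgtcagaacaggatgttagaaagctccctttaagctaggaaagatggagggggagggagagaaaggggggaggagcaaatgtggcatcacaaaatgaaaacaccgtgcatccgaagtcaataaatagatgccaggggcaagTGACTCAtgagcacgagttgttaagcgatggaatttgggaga
Spp1: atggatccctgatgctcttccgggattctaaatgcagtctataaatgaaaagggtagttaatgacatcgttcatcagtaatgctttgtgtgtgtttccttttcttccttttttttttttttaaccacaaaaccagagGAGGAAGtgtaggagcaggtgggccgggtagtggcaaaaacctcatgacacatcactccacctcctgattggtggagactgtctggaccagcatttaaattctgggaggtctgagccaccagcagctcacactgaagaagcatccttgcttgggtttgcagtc
Chil3: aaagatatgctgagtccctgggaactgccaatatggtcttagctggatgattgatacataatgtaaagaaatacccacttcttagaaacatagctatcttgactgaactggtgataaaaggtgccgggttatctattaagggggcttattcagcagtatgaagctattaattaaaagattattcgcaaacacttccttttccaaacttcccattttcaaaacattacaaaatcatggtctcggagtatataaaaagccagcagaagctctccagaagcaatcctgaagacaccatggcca
Cd163: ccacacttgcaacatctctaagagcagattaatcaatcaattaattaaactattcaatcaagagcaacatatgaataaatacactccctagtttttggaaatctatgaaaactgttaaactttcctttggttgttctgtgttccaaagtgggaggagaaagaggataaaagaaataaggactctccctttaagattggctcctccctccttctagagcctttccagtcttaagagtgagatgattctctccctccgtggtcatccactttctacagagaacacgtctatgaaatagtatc
Trem2 held PU.1 letters beginning 41 bases before the start and AP-1 letters beginning 9 bases before it, Gpnmb held AP-1 letters 8 bases after the start, and Spp1 held PU.1 letters 113 bases before it. None of the 4 motifs was found in the windows of Chil3 and Cd163. Over the 32 entries of the list, some of which belong to 1 gene and share bases, PU.1 letters were in 37.5%, AP-1 letters in 21.9%, STAT letters in 21.9% and E-box letters in 0 entries. The shares over all 32851 promoter entries of the same length were 13.6%, 7.81%, 6.95% and 7.15%. No matches of different motifs overlapped. A match describes the letters only, STAT letters with another spacing were not searched, and no binding was measured.

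The comparison of BML-260 with vehicle asks how the compound moved macrophage transcripts in this depot. Trem2, Gpnmb and Spp1 of the lipid-associated genes, Mmp12 and Atp6v0d2 of the lysosome and matrix genes, and Chil3 of the alternatively activated genes lay higher in both BML-260 libraries, 2.56-fold to 13.7-fold above vehicle. So did Il1rn (3.56-fold), Marco (2.81-fold) and Lgals3 (1.77-fold). These 9 genes were 27.3% of the list, near the 22.9% of all tested genes that lay higher in both. Resident macrophage and C1q genes had log2 fold changes from -0.58 (Cd163) to -0.12 (Folr2). Without BML-260 B the medians were 0.10 for the resident and 0.03 for the C1q genes. The direction of these medians therefore depended on that library, but Cd163 (-0.405) and C1qa (-0.03) stayed below zero without it. The separation from vehicle was larger in BML-260 A than in BML-260 B for every gene that lay higher, and the edgeR quasi-likelihood test over all genes called none of the 33 genes at an adjusted p under 0.05.

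That test called 0.00639% of all tested genes. At p under 0.05 before adjustment, 7 of the 33 genes were higher (21.2%, against 7.45% of all tested genes) and 3 were lower (9.09%, against 3.61%). The 7 were Chil3, Il1rn, Trem2, Gpnmb, Spp1, Mmp12 and Atp6v0d2, and the 3 were Cd14, Cd163 and Ctsk. DESeq2, run as an alternative, called 5 higher (15.2%, against 2.09% of all tested genes) and 0 lower (0.499% of all tested genes), namely Chil3, Spp1, Trem2, Gpnmb and Atp6v0d2. The 5 calls depended on which libraries were included. Without BML-260 A DESeq2 called 0 of the 33 higher and 3 lower (Lyz2, Cd163 and Retnla), where 1.23% of all tested genes were called. Without BML-260 B it called 16 higher and 0 lower, where 4.69% of all were called. Without vehicle A DESeq2 called Spp1 alone of the 33, where 1.29% of all were called, and without vehicle B it called Chil3, Trem2 and Spp1, where 2.83% were. Limma-voom called 0 of the 33.

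The authors' deposited table holds an adjusted p under 0.05 for 5 of the 33 genes, all higher, where 0.555% of its 51912 rows are so marked. Only 15643 of those rows had enough counts to be tested here, so that share is not comparable with the shares of tested genes above. The 5 genes so marked were the same 5 that DESeq2 called here. Both comparisons rest on the same 4 libraries, so this is no separate support. The authors' deposited table gives smaller log2 fold changes for these 5 genes, from 1.008 for Gpnmb and 1.043 for Trem2 to 1.273 for Chil3.

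The median log2 fold change over the 33 genes was 0.10, with 18 above and 15 below zero, and over all tested genes it was 0.02. Values of the vehicle and BML-260 libraries did not overlap for 9 genes that were higher (27.3%, against 22.9% of all tested genes) and for 6 that were lower (18.2%, against 21.5%). Those shares are near the background and say nothing about the list. As the plot of levels by library shows, vehicle values lay close together for most genes and the BML-260 pair was wide.

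**Figure D1:**
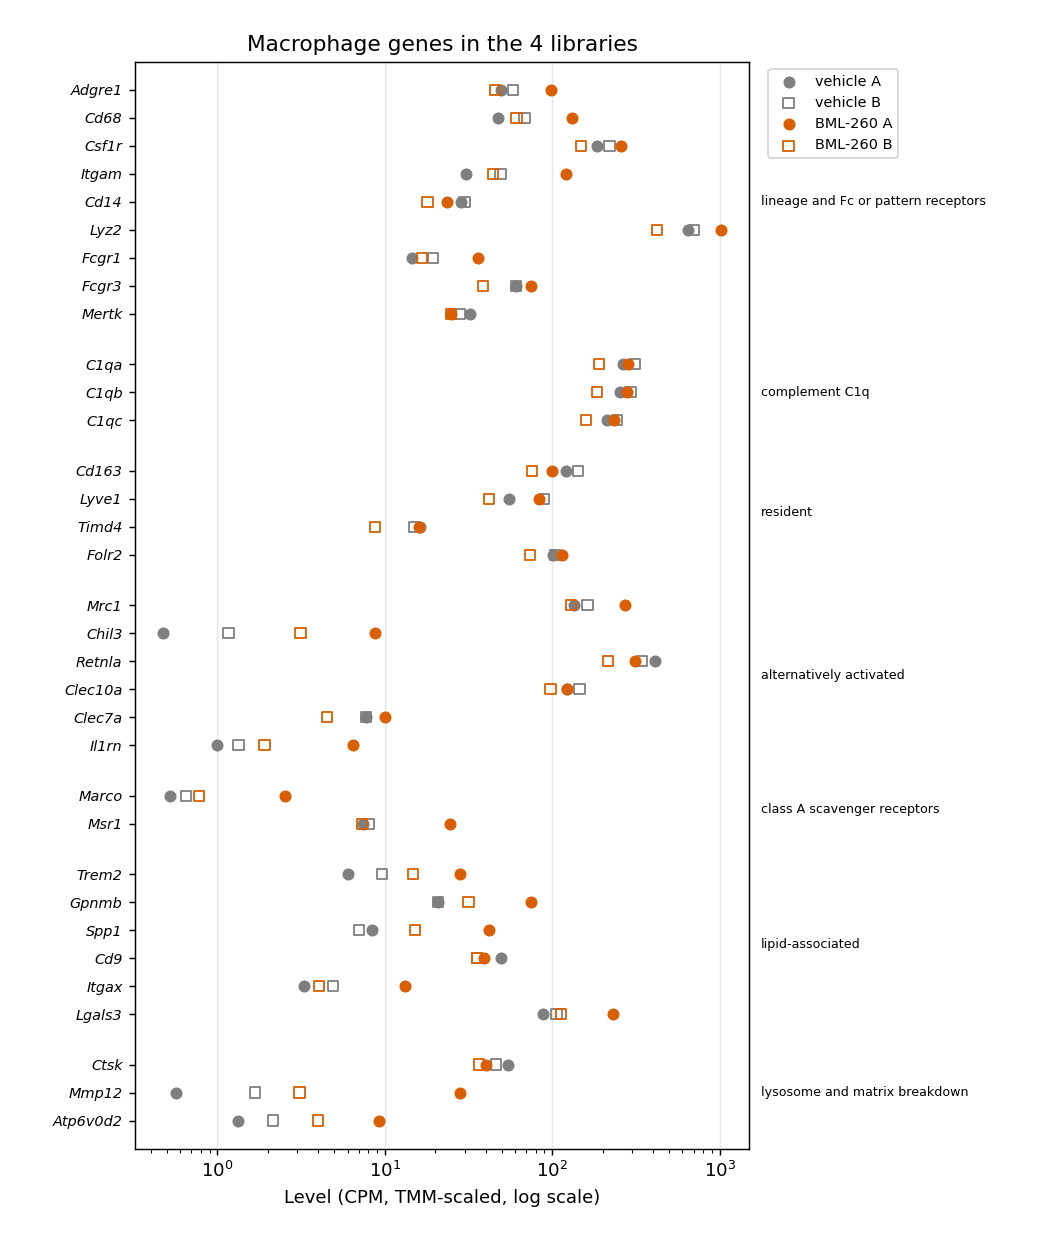
Levels of the 33 macrophage genes in each library, as TMM-scaled CPM on a log axis. Each gene is a row, grouped by role, with 1 point per library: grey for vehicle, orange for BML-260, filled circles for library A and open squares for library B. Filled orange circles lie farthest right for 21 genes and open orange squares farthest left for 19.

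Lipid-associated genes were described first, since 3 of the 5 genes DESeq2 called belong to them. Trem2 (ENSMUSG00000023992, chromosome 17, 48346401 to 48354147, plus strand of GRCm38, protein coding) encodes the surface receptor that senses lipids and signals through the adaptor TYROBP. It lay at 6.08 and 9.64 CPM in vehicle A and B, 28.3 CPM in BML-260 A and 14.8 CPM in BML-260 B. Both BML-260 libraries were above both vehicle libraries, and BML-260 A was the higher. The log2 fold change was 1.45 (SE 0.39, 95% interval 0.47 to 2.43), with an edgeR adjusted p of 0.357 and a DESeq2 adjusted p of 0.0267. Without BML-260 A it was 0.90 (SE 0.32).

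Gpnmb (ENSMUSG00000029816, chromosome 6, 49036546 to 49070929, plus strand) encodes a transmembrane glycoprotein of lysosome-rich, lipid-laden macrophages. Its vehicle libraries were nearly equal, at 20.9 and 20.7 CPM, and its BML-260 libraries differed, at 74.9 CPM in A and 31.7 CPM in B. The log2 fold change was 1.36 (SE 0.40, edgeR adjusted p = 0.377, DESeq2 adjusted p = 0.0288) and 0.59 (SE 0.14) without BML-260 A. Spp1 (ENSMUSG00000029304, chromosome 5, 104435118 to 104441050, plus strand) encodes osteopontin, a secreted glycoprotein that binds integrins and attracts macrophages. It lay at 8.40 and 7.04 CPM in the vehicle libraries, 42.2 CPM in BML-260 A and 15.1 CPM in BML-260 B, again without overlap. Its log2 fold change was 1.89 (SE 0.49, edgeR adjusted p = 0.349, DESeq2 adjusted p = 0.00624), and 0.96 (SE 0.21) without BML-260 A.

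The other lipid-associated genes did not share this pattern in full. Lgals3, which encodes galectin-3, a sugar-binding protein of phagocytes, lay at 88.1 and 106 CPM in the vehicle libraries and 230 and 113 CPM in BML-260 libraries A and B. The BML-260 B value exceeded vehicle B by little, and the log2 fold change, 0.82 (SE 0.35, edgeR adjusted p = 0.471), had an interval of -0.05 to 1.70 and was 0.21 without BML-260 A. Itgax, the integrin CD11c of macrophages and dendritic cells, was high in BML-260 A alone, at 13.3 CPM against 3.28, 4.93 and 4.05 CPM in vehicle A, vehicle B and BML-260 B. Its log2 fold change was 1.08 (SE 0.59), and -0.03 without BML-260 A. Cd9, a tetraspanin carried by many cell types besides macrophages, lay at 49.6 and 35.5 CPM in the vehicle libraries and 39.1 and 35.6 CPM with BML-260. Its groups overlapped, with a log2 fold change of -0.19 (95% interval -0.67 to 0.29), and -0.27 without BML-260 A. The median over the 6 genes was 1.22, and 0.40 without BML-260 A.

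Genes of lysosomal acidification and matrix breakdown were split. Atp6v0d2 (ENSMUSG00000028238, chromosome 4, 19876841 to 19922605, minus strand) encodes a subunit of the proton pump of lysosomes in macrophages and osteoclasts. It had 28, 50, 191 and 88 counts in vehicle A, vehicle B, BML-260 A and BML-260 B, or 1.33, 2.16, 9.20 and 4.01 CPM. Both BML-260 libraries were above both vehicle libraries, with a log2 fold change equal to 1.91 (SE 0.51, edgeR adjusted p = 0.357, DESeq2 adjusted p = 0.0474) and 1.18 (SE 0.43) without BML-260 A.

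Mmp12 (ENSMUSG00000049723, chromosome 9, 7344381 to 7369499, plus strand), the macrophage elastase, had the largest log2 fold change of the list and the widest interval. Its counts were 12, 39, 585 and 68 in vehicle A, vehicle B, BML-260 A and BML-260 B, or 0.570, 1.69, 28.2 and 3.10 CPM. BML-260 A was 9.09-fold above BML-260 B, so that a single library set most of the difference. The log2 fold change was 3.77 (95% interval 0.85 to 6.69, edgeR adjusted p = 0.385, DESeq2 adjusted p = 0.191), and 1.43 (SE 0.68) without BML-260 A. Mmp12 overlaps Mmp1b on the opposite strand, and the sources used here do not say whether counting used the strand. Ctsk, the collagen-degrading cathepsin K, which fibroblasts and adipocytes also express, went the other way, at 54.8 and 46.2 CPM with vehicle and 40.4 and 36.6 CPM with BML-260. Its log2 fold change was -0.39 (SE 0.14, edgeR adjusted p = 0.428), with no overlap between groups, and -0.48 without BML-260 A. Of other osteoclast genes, Ocstamp stood at 0.501 to 1.06 CPM over the 4 libraries, and Acp5, the acid phosphatase TRAP, at 604 and 646 CPM with vehicle against 356 and 508 CPM with BML-260.

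Alternatively activated genes did not move as a unit. Chil3 (ENSMUSG00000040809, chromosome 3, 106147554 to 106167564, minus strand), which encodes the secreted chitinase-like protein Ym1, had only 10 and 27 counts with vehicle, and 182 and 69 counts in BML-260 A and B. The levels were 0.475, 1.17, 8.76 and 3.14 CPM in the same order. Both BML-260 libraries were above both vehicle libraries, with a log2 fold change equal to 2.84 (SE 0.68, 95% interval 1.11 to 4.57, edgeR adjusted p = 0.329, DESeq2 adjusted p = 0.00778), and 1.90 (SE 0.61) without BML-260 A. Its near copy Chil4 had 0 to 2 counts per library, so few reads of Chil4 itself were counted. Il1rn, the interleukin-1 receptor antagonist, lay at 0.997 and 1.34 CPM in the vehicle libraries, 6.45 CPM in BML-260 A and 1.91 CPM in BML-260 B (log2 fold change 1.83, SE 0.64, edgeR adjusted p = 0.424). Without BML-260 A that difference was 0.69 (SE 0.48).

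Retnla and Clec10a went the other way from Chil3. Retnla (ENSMUSG00000061100, chromosome 16, 48842551 to 48844461, plus strand), a small secreted protein induced by type 2 cytokines, was the most abundant of the 33 genes per length, at a mean of 1106 FPKM. It lay at 412 and 344 CPM in the vehicle libraries and 313 and 216 CPM with BML-260, with a log2 fold change equal to -0.51 (SE 0.23, edgeR adjusted p = 0.488). The groups did not overlap, and BML-260 B was the lowest. Leaving out BML-260 A gave a log2 fold change of -0.82, and leaving out BML-260 B one of -0.27. Clec10a, a galactose-binding lectin of macrophages and dendritic cells, lay at 123 and 146 CPM in the vehicle libraries and 122 and 97.7 CPM with BML-260. The gap between vehicle A and BML-260 A was under 1 CPM, and the log2 fold change of -0.29 had an interval of -0.72 to 0.14 and was -0.47 without BML-260 A. Its neighbour in sequence Mgl2 was also lower with BML-260, at 60.3 and 70.0 CPM against 51.1 and 41.9 CPM.

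Mrc1, the mannose receptor CD206, was high in BML-260 A alone, at 271 CPM against 135, 163 and 129 CPM in vehicle A, vehicle B and BML-260 B. Clec7a, the beta-glucan receptor dectin-1, lay at 7.74 and 7.69 CPM in the vehicle libraries and 10.0 and 4.51 CPM in BML-260 libraries A and B, on both sides of the vehicle pair. It is annotated as a polymorphic pseudogene in GENCODE vM21. The difference between treatments was 0.43 (95% interval -0.48 to 1.34) for Mrc1 and -0.09 (95% interval -1.10 to 0.93) for Clec7a on the log2 scale. Without BML-260 A these were -0.22 and -0.79.

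The resident genes were all lowest in BML-260 B, where 20.3% of all tested genes were lowest. Cd163 (ENSMUSG00000008845, chromosome 6, 124304656 to 124330527, plus strand) encodes the receptor for haemoglobin bound to haptoglobin. It lay at 120 and 142 CPM in the vehicle libraries, 99.5 CPM in BML-260 A and 76.1 CPM in BML-260 B, and alone among the 4 resident genes its groups did not overlap. Its log2 fold change was -0.58 (SE 0.18, 95% interval -1.04 to -0.12, edgeR adjusted p = 0.389, DESeq2 adjusted p = 0.128), and -0.80 (SE 0.17) without BML-260 A. Lyve1, a hyaluronan receptor of perivascular macrophages and of lymphatic endothelium, lay at 55.2, 89.2, 83.5 and 42.0 CPM in vehicle A, vehicle B, BML-260 A and BML-260 B, and the vehicle libraries differed from each other too. Its log2 fold change was -0.20 (SE 0.38), and -0.80 without BML-260 A. The lymphatic markers Prox1, at 0.807 to 1.18 CPM, and Flt4, at 6.21 to 9.49 CPM, did not follow the order of Lyve1. The 8 genes of the lymphatic list summed to 125, 116, 160 and 102 CPM in vehicle A, vehicle B, BML-260 A and BML-260 B. That sum was, like Lyve1, lowest in BML-260 B. The part of lymphatic endothelium in the Lyve1 values was not tested.

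Timd4, which encodes the phosphatidylserine receptor TIM4, stood at 16.1, 15.0 and 15.9 CPM in vehicle A, vehicle B and BML-260 A and at 8.79 CPM in BML-260 B. Folr2, folate receptor beta, stood at 101, 105 and 115 CPM in the same 3 libraries and at 73.9 CPM in BML-260 B. For both genes a single library was low, and the intervals of the log2 fold change were -1.10 to 0.43 for Timd4 and -0.69 to 0.45 for Folr2. Without BML-260 A the values were -0.84 and -0.49. The median over the 4 resident genes was -0.27. It was -0.80 when BML-260 A was left out and 0.10 when BML-260 B was, so its direction turned with the library left out.

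The 3 C1q genes encode the chains of the recognition molecule of the classical complement pathway, made in tissues mainly by macrophages. C1qa, C1qb and C1qc lie side by side on chromosome 4 between 136880129 and 136898803. C1qa lay at 264, 314, 284 and 190 CPM in vehicle A, vehicle B, BML-260 A and BML-260 B. C1qb, at 253, 294, 279 and 184 CPM, and C1qc, at 213, 245, 235 and 160 CPM, had the same order of libraries. BML-260 A was inside the vehicle range for all 3 and BML-260 B was below it. The log2 fold changes were -0.29, -0.24 and -0.21, and the lowest of the 3 edgeR adjusted p-values was 0.688. They were -0.62, -0.58 and -0.53 when BML-260 A was left out, and -0.03, 0.03 and 0.04 when BML-260 B was.

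Of the 9 lineage and Fc receptor genes, 7 were highest in BML-260 A (77.8%, against 29.7% of all tested genes). Adgre1, which encodes F4/80, lay at 49.4 and 58.3 CPM in the vehicle libraries, 98.1 CPM in BML-260 A and 45.8 CPM in BML-260 B. Cd68, a lysosomal glycoprotein of macrophages, lay at 47.6, 68.4, 131 and 61.2 CPM in vehicle A, vehicle B, BML-260 A and BML-260 B. Itgam, the integrin CD11b of myeloid cells, lay at 30.4, 49.1, 120 and 44.2 CPM in the same order. In each, BML-260 A was high and BML-260 B lay near or within the vehicle pair. The log2 fold changes were 0.42, 0.73 and 1.05, and -0.25, 0.06 and 0.14 without BML-260 A. Itgam shares its locus with a readthrough-like gene, Gm49368, listed under the same symbol with 4 to 22 counts per library and not used.

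Csf1r, the receptor for colony-stimulating factor 1, on which macrophages depend, lay at 185, 220, 257 and 149 CPM, with BML-260 A above and BML-260 B below the vehicle pair. Lyz2, lysozyme M, had the same form at 646, 703, 1019 and 425 CPM, and shares most of its sequence with Lyz1, which stood at 18.04 to 43.7 CPM. The Fc gamma receptor genes Fcgr1, at 14.5, 19.4, 36.2 and 16.7 CPM, and Fcgr3, at 61.0, 61.2, 75.0 and 38.6 CPM, were also highest in BML-260 A. Log2 fold changes were 0.01 for Csf1r, 0.10 for Lyz2, 0.64 for Fcgr1 and -0.11 for Fcgr3, and every interval included zero. Without BML-260 A they were -0.45, -0.68, -0.04 and -0.68.

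Cd14 and Mertk were the lineage genes whose groups did not overlap. Cd14, the co-receptor for bacterial lipopolysaccharide, lay at 28.5 and 30.0 CPM in the vehicle libraries and 23.5 and 17.99 CPM with BML-260 (log2 fold change -0.50, SE 0.17, edgeR adjusted p = 0.418). Mertk, a receptor for the uptake of dying cells, lay at 32.3 and 28.2 CPM in the vehicle libraries and 25.0 and 24.9 CPM with BML-260 (-0.27, SE 0.13, edgeR adjusted p = 0.501). Without BML-260 A the values were -0.71 and -0.29. The class A scavenger receptors, which bind modified lipoproteins and microbes, were high in BML-260 A. Msr1 lay at 7.40 and 8.04 CPM in the vehicle libraries, 24.7 CPM in BML-260 A and 7.29 CPM in BML-260 B. Marco, the least abundant of the 33 genes per length at a mean of 0.692 FPKM, had 11, 15, 53 and 17 counts in vehicle A, vehicle B, BML-260 A and BML-260 B. The log2 fold changes were 1.05 for Msr1 and 1.49 for Marco, and -0.10 and 0.38 without BML-260 A.

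**Figure D2:**
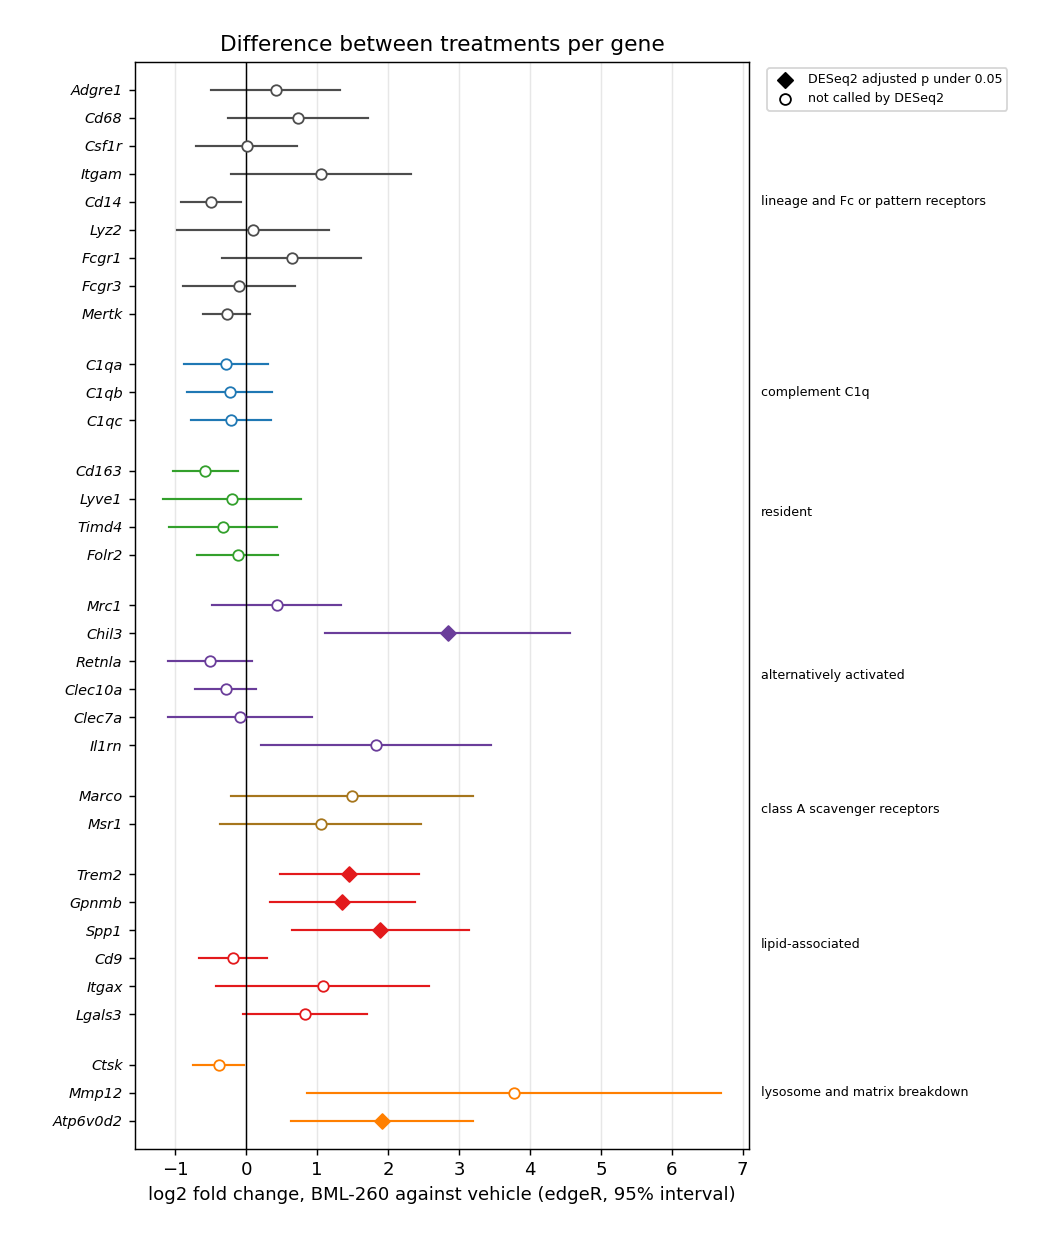
The log2 fold change of each of the 33 genes with BML-260 against vehicle, from edgeR on 2 libraries per treatment, with bars for the 95% interval and a vertical line at no difference. Filled diamonds are the 5 genes DESeq2 called, all to the right of zero, and colours group the genes by role. The interval of Mmp12 reaches from 0.85 to 6.69.

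The pair of BML-260 libraries was compared gene by gene. All 33 genes were higher in BML-260 A than in BML-260 B, by a median of 2.03-fold and a range of 1.005-fold (Mertk) to 9.09-fold (Mmp12), where the median over all tested genes was 0.981. BML-260 A was the highest of the 4 libraries for 21 of the 33 genes (63.6%, against 29.7% of all tested genes). BML-260 B was the lowest for 19 (57.6%, against 20.3%). The genes share libraries, so these counts describe 1 pair of libraries and carry no test. BML-260 B lay above both vehicle libraries for 9 of the 33 genes (27.3%, against 36.6% of all tested genes). As folds of the vehicle mean, its values were Chil3 (3.83-fold), Mmp12 (2.75-fold), Atp6v0d2 (2.30-fold), Spp1 (1.96-fold), Trem2 (1.88-fold), Il1rn (1.64-fold), Gpnmb (1.52-fold), Marco (1.32-fold) and Lgals3 (1.17-fold). These were the 9 genes whose groups did not overlap and were higher.

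**Figure D3:**
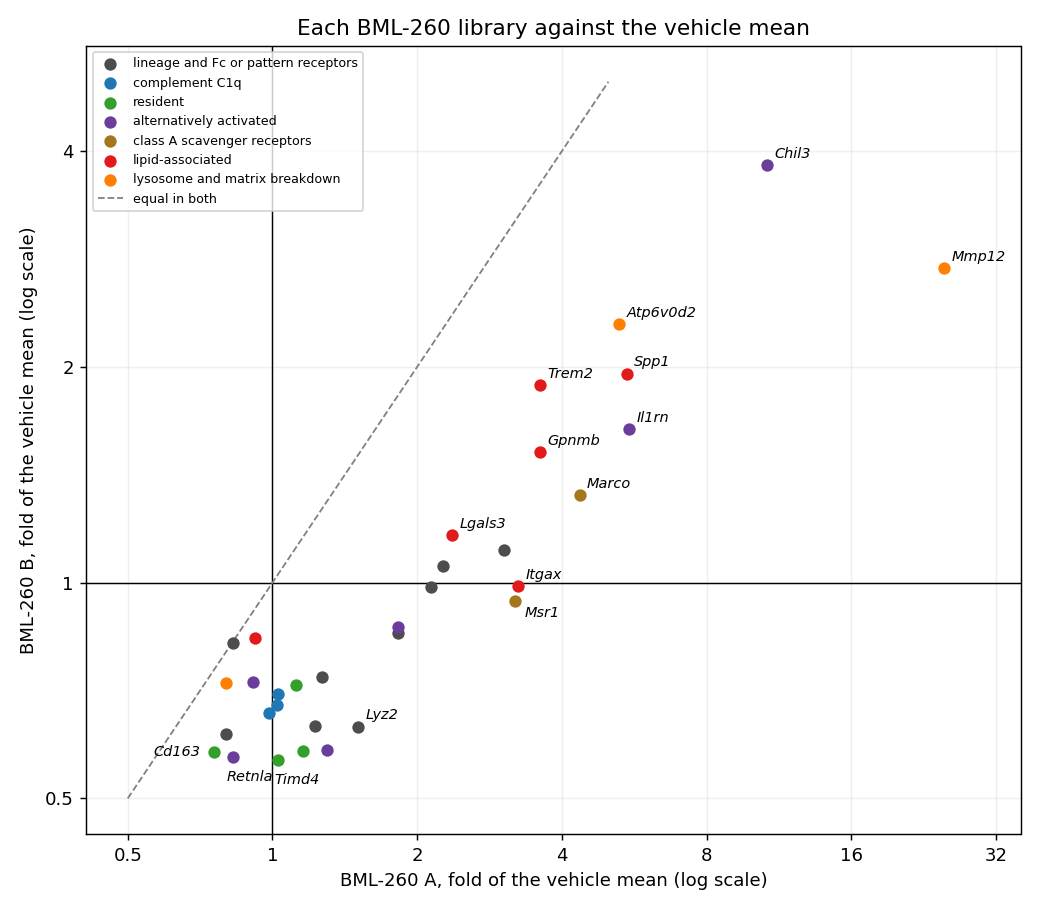
Level of each of the 33 genes in BML-260 A (horizontal) and in BML-260 B (vertical), each as a fold of the vehicle mean on a log axis, coloured by role. The dashed line marks equal folds, solid lines mark the vehicle mean, and every gene lies below or on the dashed line. Chil3, Mmp12, Atp6v0d2, Spp1 and Trem2 lie above the vehicle mean in both libraries, and Cd163 and Retnla lie below it in both.

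To compare genes within the macrophage signal of each library, counts were also set against the summed counts of C1qa, C1qb and C1qc, a denominator chosen after the values were seen. Summed C1q levels were 729 and 852 CPM with vehicle and 798 and 535 CPM in BML-260 libraries A and B. Trem2 had 8.33 and 11.3 counts per 1000 C1q counts with vehicle and 35.5 and 27.7 with BML-260. Gpnmb had 28.7 and 24.3 with vehicle and 93.9 and 59.2 with BML-260. Spp1 had 11.5 and 8.27 with vehicle and 52.9 and 28.3 with BML-260. The groups of all 3 genes did not overlap on this scale, whose denominator was itself lowest in BML-260 B.

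Cd163 was lower on the C1q scale as well, with 165 and 167 counts per 1000 C1q counts with vehicle and 125 and 142 with BML-260. Of the 30 genes other than C1q, 18 were higher without overlap and 3 (Cd14, Cd163 and Retnla) were lower. Of all tested genes, 31.9% were higher and 2.15% lower on this scale. The gap was narrow for Retnla, at 404.1 in vehicle B and 403.5 in BML-260 B. It was also narrow for Cd14, at 35.1 and 33.7 in the same libraries. EdgeR with each library scaled to C1q called 7 of the 30 genes, all higher. The scaling moved the median log2 fold change of all tested genes to 0.31, and 4.42% of them were called, and every value on this scale includes that shift.

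The wider pathways were read from lists of genes chosen by function. Among growth factors and transcription factors of macrophages, 3 of 20 tested genes were higher and 1 was lower before adjustment (p under 0.05). Among the higher ones were Maf (log2 fold change 0.52, SE 0.20) and Tfeb (0.42, SE 0.16), which encode regulators of macrophage identity and of lysosome genes. Id3, an inhibitor of helix-loop-helix factors, lay at 85.8 and 77.4 CPM in the vehicle libraries and 45.2 and 56.1 CPM with BML-260, and DESeq2 called it lower (adjusted p = 0.0181). In the list of type 2 cytokine signalling, 2 of 16 tested genes were higher and 1 was lower by the same rule.

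Arg1, the arginase of alternatively activated macrophages, was the type 2 gene with the smallest p. It had 12, 7, 126 and 100 counts in vehicle A, vehicle B, BML-260 A and BML-260 B, with a log2 fold change equal to 3.60 (SE 0.43, edgeR adjusted p = 0.216), and was called higher by DESeq2. Unlike most of the 33 genes, its BML-260 libraries were close, at 6.07 and 4.56 CPM. Irf4, a factor downstream of interleukin-4 that adipocytes and lymphocytes also express, had a log2 fold change equal to 0.68 (SE 0.18), and Tslp, an epithelial cytokine, one of -1.08 (SE 0.37). Il4 and Il13, the cytokines themselves, had 0 to 4 counts per library and were not tested.

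In the list of TREM2 signalling and lipid handling, 1 of 25 tested genes was higher and 1 was lower at an unadjusted p under 0.05. Lipa, the lysosomal acid lipase, lay at 57.0 and 64.1 CPM in the vehicle libraries and 99.1 and 72.8 CPM with BML-260. Apoe, a lipid carrier made by adipocytes as well as macrophages, lay at 5654 and 5225 CPM in the vehicle libraries and 2966 and 3589 CPM with BML-260, and DESeq2 called it lower (log2 fold change -0.73, SE 0.26 in edgeR). Among efferocytosis and phagocytic receptors, 2 of 19 tested genes were higher and 1 was lower. Stab2, a scavenger receptor of sinusoidal endothelium and some macrophages, was called higher by DESeq2 (adjusted p = 0.0295), from 11 and 38 counts with vehicle to 88 and 141 counts with BML-260. Cd300lb, an activating receptor for phosphatidylserine, had a log2 fold change equal to 1.26 (SE 0.39), and the lectin gene Cd209g one of -0.54 (SE 0.14).

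Other resident macrophage genes had 1 of 15 tested genes higher and 2 lower by the same rule. The lower ones were Fcna (-0.51, SE 0.17), a ficolin, and Mgl2 (-0.49, SE 0.15), and the higher one was Maf, which is also counted above. The classical inflammatory list had 0 of 13 higher and 1 lower, Cxcl9 (-0.62, SE 0.23), a chemokine induced by interferon-gamma. These counts per list stand against 7.45% of all tested genes higher and 3.61% lower, and no list was tested as a set.

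Markers of other cells moved with the same libraries. Of 12 tested monocyte genes, 4 were higher at an unadjusted p under 0.05, where 7.45% of all tested genes were. Among the 4 were S100a4, Ms4a4c and Vcan. BML-260 A was the highest library for 11 of the 12 (91.7%, against 29.7% of all tested genes). Ly6c2 lay at 13.8, 17.8, 38.1 and 13.6 CPM and Ccr2 at 25.9, 31.4, 92.4 and 32.4 CPM in vehicle A, vehicle B, BML-260 A and BML-260 B, an order close to that of Itgam, Adgre1 and Msr1. Summed monocyte levels were 779 and 1327 CPM with vehicle and 1788 and 1030 CPM with BML-260. B cell and T cell markers were high in BML-260 A alone, with Cd79a at 0.285, 0.692, 38.1 and 0.911 CPM and Cd3e at 0.712, 1.64, 8.52 and 1.09 CPM in the same order. Their part in the macrophage values of BML-260 A was not tested.

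Dendritic cell genes were also highest in BML-260 A for 9 of 13 (69.2%, against 29.7% of all tested genes). Flt3 lay at 6.79 CPM there and 1.09 to 2.12 CPM elsewhere, and Xcr1 at 1.18 to 1.88 CPM over the 4 libraries. Neutrophil and eosinophil markers were near the floor, with S100a8, S100a9, Siglecf and Prg2 at 0 to 14 counts per library. The mast cell gene Cpa3 lay at 23.4 and 14.8 CPM in the vehicle libraries and 17.9 and 16.1 CPM with BML-260, and Kit at 14.7 to 18.3 CPM over the 4 libraries. Mesothelial Msln and Upk3b were at 0 to 8 counts. Other genes of these lists at an unadjusted p under 0.05 were Cd22, Ighd, Il7r, Cd28 and Ccr7, all higher and highest in BML-260 A, and Mmp9, which was lower.

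Markers of the bulk of the tissue differed as well. Adipoq, the adipokine gene of mature adipocytes, lay at 3022 and 2744 CPM in the vehicle libraries and 1662 and 2193 CPM with BML-260, and Plin1, which coats lipid droplets, at 2025, 2042, 1525 and 2005 CPM in vehicle A, vehicle B, BML-260 A and BML-260 B. Endothelial Pecam1 lay at 169 and 147 CPM against 119 and 122 CPM with BML-260, and Cdh5 at 191 and 179 CPM against 111 and 164 CPM. Pecam1, Cldn5, Egfl7 and Tie1 among endothelial genes and Retn among adipocyte genes were lower by the same rule, and Mb, Myh1, Des and Tcap among muscle genes were higher. The stromal genes Pdgfra, at 76.3 to 96.0 CPM, and Dcn, at 598 to 851 CPM, were lowest in BML-260 B. So were 6 of the 10 genes of their list (60.0%, against 20.3% of all tested genes). The summed level of that list was 6102, 7638, 8497 and 6848 CPM in vehicle A, vehicle B, BML-260 A and BML-260 B. The muscle genes Ckm (42.6, 1476, 4019 and 6304 CPM) and Acta1 (68.9, 2022, 5198 and 9202 CPM) were ordered vehicle A, vehicle B, BML-260 A and BML-260 B from lowest to highest. Of the genes named above, Tfeb (18.9, 22.8, 25.8 and 30.2 CPM) and, by its counts, Stab2 had this order too. The 33 macrophage genes were all higher in BML-260 A than in BML-260 B. All 15 muscle genes lay higher in both BML-260 libraries than in both vehicle libraries. So did 9 of the 33 macrophage genes, and 22.9% of all tested genes. The part of muscle in the macrophage results was not tested.

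**Figure D4:**
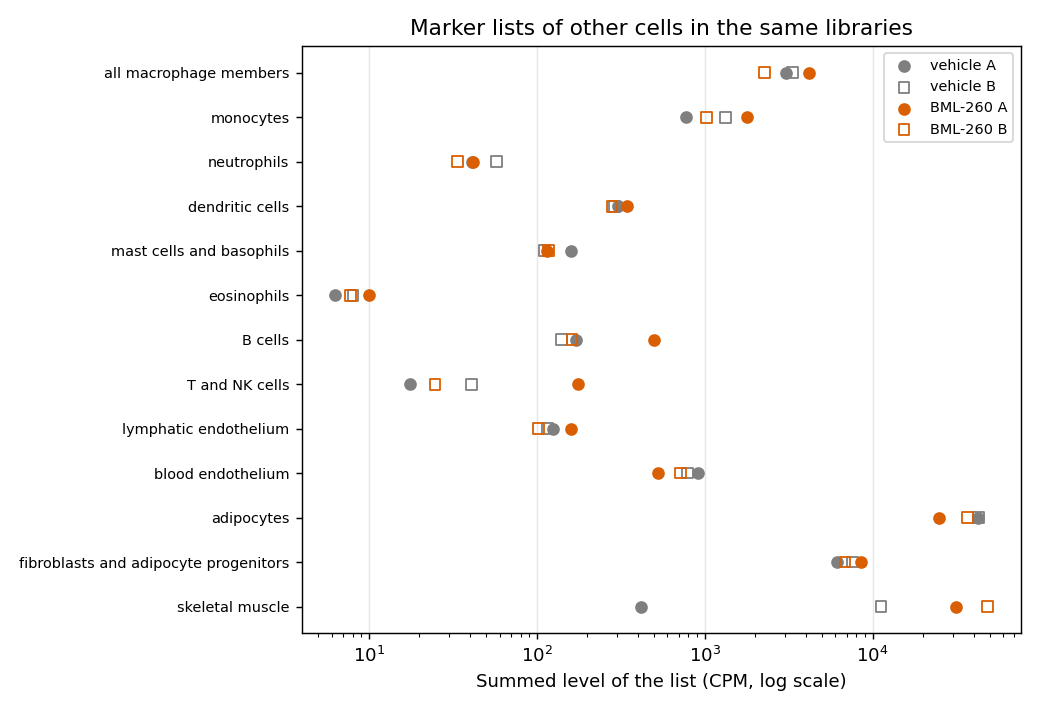
Summed level of the 33 macrophage genes and of marker lists of other cells in each library, as CPM on a log axis, with grey for vehicle, orange for BML-260, filled circles for library A and open squares for library B. The macrophage sum is 3036, 3346, 4161 and 2277 CPM in vehicle A, vehicle B, BML-260 A and BML-260 B, and B cell, T and NK cell and monocyte sums are also highest in BML-260 A. Muscle sums are high in both BML-260 libraries.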

How the data were processed

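RNA from whole subcutaneous white adipose tissue was extracted with TRIzol and made into Illumina libraries, per the labels' protocols. Libraries were grouped by the treatment label. The authors deposited expected counts per gene and library, without normalization, of which 76.5% to 77.8% of values above 0 were whole. Deposited FPKM values, scaled by the authors for gene length and depth, were used only to set genes side by side, and the authors' group means of FPKM and their log2 values were not used. The authors' own comparison was deposited as log2 fold changes with raw p-values and adjusted ones. HISAT2 2.1.0, RSEM 1.2.31, DESeq2 1.10.1 and GRCm38.p5 are named in the submitters' processing notes, with no role or order. Annotation, strand setting and read filters are not given in the sources used here.

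Here the expected counts were rounded and genes with low counts removed by filterByExpr, leaving 15643. Differences were fitted with edgeR 4.0.16 quasi-likelihood (R 4.3.3; two-sided, with TMM factors and no term but treatment; 2 residual and 3.28 prior degrees of freedom), with Benjamini-Hochberg adjustment over all tested genes at 0.05. The standard error is the log2 fold change over the square root of F, and intervals are at 95%. The biological coefficient of variation was 23.0%. Alternatives were DESeq2 1.42.0, limma-voom (limma 3.58.1), other scaling factors and filters, leaving out each library, and the library letter as a term. Scaling to C1q counts and DESeq2 without each library were added after seeing the data. The fits were tested on simulated data. Gene positions are from GENCODE vM21 on GRCm38. Where 1 symbol had several identifiers, the row with the highest mean count was used. The libraries of a treatment were not repeats of 1 library by their counts (chi-square per degree of freedom 40.4 for vehicle and 45.6 for BML-260), so each counted as 1 sample.

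The 33 genes and the other lists were chosen with earlier results of these data known. All 33 genes are named, and of each other list up to 4 genes at an unadjusted p under 0.05, by smallest p, with the first 2 genes of each cell type list; some of these are not reported here. Il4, Il13, Lyz1, Chil4 and Gm49368 are named beside them as ligands, near copies or a shared locus.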

Additional observations from a re-analysis of the deposited data

How the results depend on the processing

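The number of the 33 genes called was 0 with edgeR and limma-voom except in 2 settings, and above 0 with DESeq2: DESeq2 called 5 (16 without BML-260 B, 3 without vehicle B, 3 without BML-260 A and 1 without vehicle A), edgeR with no filter on low counts 6 (the 5 and Mmp12) and scaling to C1q counts 7. Over all genes the edgeR count of 1 became 405 with DESeq2, 651 without a filter and 692 with C1q scaling, and was 0 to 309 when 1 library was left out (309 without vehicle B). Those were 2.66% of the 24481 genes tested without a filter and 4.42% of all tested with C1q scaling. Without a filter the estimated prior degrees of freedom were 13.7 and with C1q scaling infinite, against 3.28. The number of the 33 genes at an unadjusted p under 0.05 was 10 in the main fit and 18 without a filter. The share of all tested genes at that p is given for the main fit only. Counts at that p from other fits are therefore not read as results about the list. The median log2 fold change of 0.097 over 33 genes was 0.423 over the 30 genes other than C1q and 0.623 over those 30 with C1q scaling. Over all 33 it was -0.269 with BML-260 A left out and 0.590 with BML-260 B left out. The stricter filter left 31 of the 33 genes.

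The library letters A and B name libraries, and differences between A and B in vehicle and in BML-260 had a correlation of -0.0401 over the tested genes and of -0.607 over the 33 genes, which are not independent replicates. With the letter as a replicate block edgeR called 0 genes and 0 of the 33, with 9 of the 33 at an unadjusted p under 0.05 (5 higher, 4 lower).

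Of the 33 genes, 17 kept their direction under every alternative with a value, 11 higher (Cd68, Itgam, Chil3, Il1rn, Marco, Trem2, Gpnmb, Spp1, Lgals3, Mmp12 and Atp6v0d2) and 6 lower (Cd14, C1qa, Cd163, Retnla, Clec10a and Ctsk). All 17 but Cd68, Itgam and C1qa had groups that did not overlap, which nearly fixes the direction when 1 library is left out. The count is therefore no separate support, and its share over all tested genes is not given. Some values came near zero: Cd68 was 0.0634 without BML-260 A, C1qa -0.0305 without BML-260 B and Clec10a -0.0158 with C1q scaling. The log2 fold change of Csf1r turned to -0.00188 with DESeq2, -0.0351 with limma-voom, -0.00189 with RLE factors, -0.0222 with library totals and -0.0396 with the replicate block, and that of Lyz2 to -0.0304 with limma-voom and -0.0351 with the replicate block. With C1q scaling Fcgr3 was 0.0963, Mertk 0.0118, Lyve1 0.0240, Folr2 0.114, Clec7a 0.100 and Cd9 0.0768, all above zero. Leaving out 1 library moved Adgre1 over -0.247 to 0.862, Csf1r over -0.450 to 0.341, Lyz2 over -0.681 to 0.590, Fcgr1 over -0.0357 to 1.09, Fcgr3 over -0.677 to 0.291, Mrc1 over -0.220 to 0.862, Msr1 over -0.0975 to 1.67 and Itgax over -0.0326 to 1.69. It moved C1qb over -0.580 to 0.0273, C1qc over -0.532 to 0.0356, Lyve1 over -0.795 to 0.207, Timd4 over -0.836 to 0.0320, Folr2 over -0.489 to 0.160, Clec7a over -0.788 to 0.372 and Cd9 over -0.410 to 0.0452. The cause of these moves was not tested. With 2 libraries a group, a fit without 1 of them assumes that the lone library varies like the other group.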
